A study of Mus musculus with 6 samples.

Results

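The genes described here are 10 genes of the CCN family and of the YAP/TAZ pathway: the CCN genes *Cyr61*, *Ctgf*, *Nov*, *Wisp1* and *Wisp2*, the YAP/TAZ target genes *Ankrd1* and *Amotl2*, and the effectors *Yap1*, *Wwtr1* (which encodes TAZ) and *Tead1*. They were chosen by gene symbol, and all 10 were found among the 28987 genes of the table, under these older symbols of the CCN genes. The data are RNA-seq profiles of sorted EGFP+ ventricular cells, taken 4 weeks after the aorta was narrowed by surgery (transverse aortic constriction, TAC) to load the heart with pressure, in a study that asked what follows when activated fibroblasts lose the collagen chaperone Hsp47. There are 3 control libraries (replicates 3, 4 and 2) and 3 libraries labelled Hsp47-deleted (replicates 1, 2 and 3), and the values are log2(value + 1) with the linear unit not named, so the depth of each library is unknown. Control replicates 3 and 4 come from 1 sequencing run (here the first run), and control replicate 2 shares the other (here the second run) with all 3 libraries labelled Hsp47-deleted. Values of single libraries are given in this order, the control of the second run being the last of the 3 controls.

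All mice carried a MerCreMer cDNA (a tamoxifen-activated Cre recombinase) knocked into the *Postn* locus and a Cre-dependent eGFP reporter in the Rosa locus, and in addition the mice labelled Hsp47-deleted were Hsp47flox/flox. Cre activity and the sorting gate therefore both depend on *Postn* expression, and the labels of the control mice list no floxed *Hsp47* allele. Surgery was done at 8 to 10 weeks of age, and every mouse received tamoxifen, for which the labels give 100 mg/kg (intraperitoneal) and 40 mg/kg (chow) where the study's methods give other doses. Control replicate 2 is placed among the controls by its genotype label, as its title does not hold the word. The labels do not say that each library came from a separate mouse, and if some did not, the p-values measure only the spread between libraries.

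CCN proteins are secreted matricellular proteins that bind integrins, heparan sulfate proteoglycans and LRP receptors, and CTGF in particular is known as a companion of TGF-β in fibrosis. Expression of *Ctgf* and *Cyr61* is controlled in large part by YAP and TAZ, coactivators that the Hippo kinases hold out of the nucleus and that enter it in cells spread on a stiff matrix. In the nucleus they bind DNA through the TEAD factors, which recognize the hexamer CATTCC, which reads as its reverse complement GGAATG on the opposite strand, and in fibroblasts this pathway is known to link matrix stiffness to matrix production.

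The hexamer was looked for in the 250 bases before each transcription start listed by RefSeq (GRCm38.p6), on both strands. Promoters were matched for 5 of the 10 genes, *Cyr61*, *Ankrd1*, *Amotl2*, *Yap1* and *Wwtr1*, and all 5 hold the hexamer, against 4153 of all 32851 listed promoters (12.6%). *Ankrd1* holds it at 2 places, as 0.992% of all promoters do at 2 or more. Most other genes known as YAP/TAZ targets and matched to a promoter lack it. *Axl*, *Crim1* and *Ptpn14* hold it, whereas *Myof*, *Lats2*, *F3*, *Igfbp3*, *Foxf2*, *Gadd45a*, *Nt5e*, *Tgfb2* and *Rbms3* do not. The windows of *Cyr61* (chr3:145649986-145650235, minus strand) and *Yap1* (chr9:8004597-8004846, minus strand) are shown whole because they stand before a CCN target and before the coactivator itself, with the hexamer in capitals, 5′ to 3′ on the strand of the gene.
Cyr61: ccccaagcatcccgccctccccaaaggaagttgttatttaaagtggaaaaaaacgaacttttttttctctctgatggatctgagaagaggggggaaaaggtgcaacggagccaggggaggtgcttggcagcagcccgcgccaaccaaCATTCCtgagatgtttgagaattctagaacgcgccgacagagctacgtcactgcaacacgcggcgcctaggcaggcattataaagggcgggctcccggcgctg
Yap1: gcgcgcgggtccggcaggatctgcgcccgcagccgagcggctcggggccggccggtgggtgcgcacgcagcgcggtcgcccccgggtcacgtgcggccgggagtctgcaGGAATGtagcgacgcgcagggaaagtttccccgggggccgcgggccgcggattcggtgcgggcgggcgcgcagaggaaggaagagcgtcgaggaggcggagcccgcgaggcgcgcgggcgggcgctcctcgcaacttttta
The hexamer starts 103 bases before the start of *Cyr61* and 141 bases before that of *Yap1*. In GENCODE release M21 no exon of either gene lies in its window, and 17 bases of the *Yap1* window belong to an exon of *Gm45494*. For the others of the 5 genes, 30 bases around each match are shown so that the flanks can be compared, at chr19:36120037-36120066 and chr19:36119950-36119979 (*Ankrd1*, minus strand), chr9:102717727-102717756 (*Amotl2*, plus strand) and chr3:57576029-57576058 (*Wwtr1*, minus strand).
Ankrd1, farther match: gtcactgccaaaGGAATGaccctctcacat
Ankrd1, nearer match: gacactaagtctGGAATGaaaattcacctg
Amotl2: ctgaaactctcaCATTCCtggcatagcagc
Wwtr1: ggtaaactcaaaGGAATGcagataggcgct
The matches of *Ankrd1* start 210 and 123 bases before its start, that of *Amotl2* 65 bases before, and that of *Wwtr1* 136 or 170 bases before its 2 listed starts. *Ankrd1*, *Yap1* and *Wwtr1* carry the hexamer as GGAATG on the gene's own strand, whereas *Cyr61* and *Amotl2* carry it as CATTCC. The *Ankrd1* window lies whole in noncoding exon sequence of a longer GENCODE transcript of the gene, and 136 bases of the *Amotl2* window do so. A match of 6 letters is a description of these windows and shows neither binding nor a cause of any value given here.

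**Figure D1:**
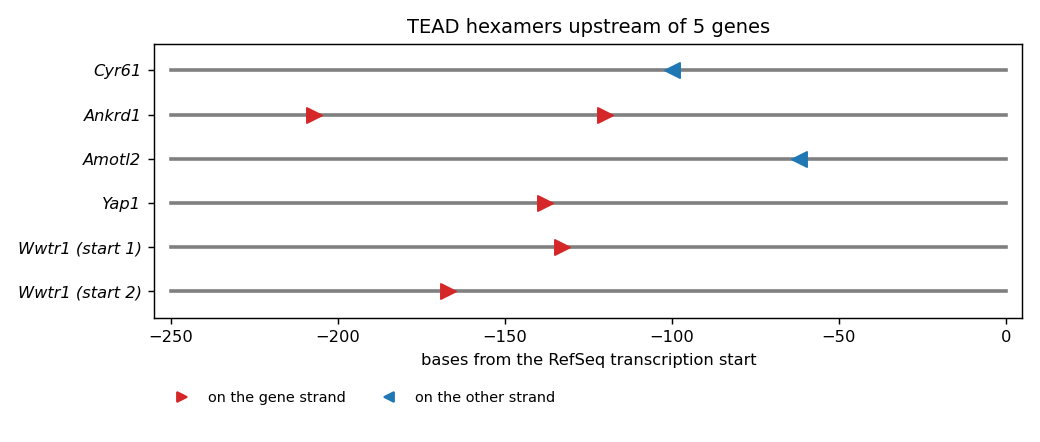
Positions of the TEAD hexamer in the 250 bases before the RefSeq starts of 5 genes, with *Wwtr1* drawn for both of its starts. The horizontal axis is the distance in bases from the start, and the arrowheads show the strand. Matches lie between 65 bases (*Amotl2*) and 210 bases (*Ankrd1*) before the start.

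*Hsp47* is listed as *Serpinh1*, and its log2 value was 6.28, 6.10 and 7.60 in the controls against 6.87, 6.67 and 6.66 in the libraries labelled Hsp47-deleted. The ranges overlapped, with a log2 fold change of 0.072 (standard error (SE) 0.43, limma, BH-adjusted p = 0.947). Against the 1 control of the second run, 0 of the 3 libraries labelled Hsp47-deleted were higher and the difference was -0.87, with 2.62% of tested genes lower, whereas they all lay above the controls of the first run. The value of the targeted transcript thus does not settle the labels, and the groups are named as labelled throughout. The paper describes a loxP-targeted exon of this gene, and a value per gene cannot tell transcripts with that exon from those without. It also reports, by Western blot of sorted EGFP+ cells, that Hsp47 protein was efficiently deleted, which RNA values do not measure. The defining fibroblast markers *Col1a1* (8.20 to 9.52) and *Pdgfra* (5.54 to 6.71) were present in every library, *Postn* was at 5.86 to 6.12 in controls and 10.22 to 10.50 in the others, and of the leukocyte markers *Ptprc* is listed at 0 in all 6 while *Cd68* was at 4.33 to 6.01. Over the 15109 genes with a mean linear value of at least 1, the median log2 fold change was 0.35 rather than 0, and it was -0.060 after each library was centred on its median. In bulk libraries of sorted cells, a different number of cells of a type and a different amount of RNA per cell cannot be told apart.

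In the libraries labelled Hsp47-deleted the largest differences among the 10 genes were those of *Wisp2* (log2 fold change 1.87), *Amotl2* (1.81), *Cyr61* (1.66), *Ctgf* (1.40), *Ankrd1* (1.32) and *Yap1* (1.05), all higher. *Wisp1* (0.37), *Wwtr1* (0.41) and *Tead1* (-0.036) lay nearer to 0, and *Nov* was lower (-0.62). None of the 10 genes passed the test over all genes (limma, Benjamini-Hochberg (BH)-adjusted p from 0.160 to 0.968), against 37 genes called of 15109 (0.245%). At an unadjusted limma p under 0.05, 5 of the 10 were higher (*Cyr61*, *Ctgf*, *Wisp2*, *Amotl2* and *Yap1*) and 0 were lower, against 14.5% of all tested genes higher and 0.755% lower (15.2% in either direction).

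All 10 genes passed the filter on low values, and 8 had a positive log2 fold change, against 74.5% of all tested genes. The log2 fold change was at least 1 in 6 of the 10, against 15.8% of all tested genes. In 4 of the 10 (*Ctgf*, *Wisp2*, *Amotl2* and *Yap1*) all libraries labelled Hsp47-deleted were above all controls, against 18.3% of all tested genes (1.5% were apart in the other direction, 19.8% in either). The median over the 10 was 1.19, against 0.35 over all genes. With each library centred on its median it was 0.77 and 6 of the 10 were positive, since *Wisp1* (-0.043) and *Wwtr1* (-0.0030) then lay just below 0.

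The 4 libraries of the second run hold 1 control, and against that control alone *Wisp2*, *Amotl2*, *Cyr61*, *Ctgf*, *Ankrd1* and *Yap1* had smaller differences than in the pooled comparison. The median over the 10 was 0.74, against 0.29 over all tested genes. In 7 of the 10 all 3 libraries labelled Hsp47-deleted lay above control replicate 2, against 46.7% of all tested genes, *Cyr61*, *Ankrd1* and *Nov* being the other 3. Control replicate 2 lay above the mean of control replicates 3 and 4 by at least 1 log2 unit in 5 of the 10 (*Cyr61*, *Nov*, *Wisp2*, *Ankrd1* and *Amotl2*), against 21.7% of all tested genes. With sequencing run as a covariate, the fitted difference equals that against control replicate 2 alone, and 0 of the 10 passed (limma, 50 genes called, 0.331%). In that fit the differences ran from -1.51 (*Nov*) to 1.25 (*Ctgf*), and 8 of the 10 were positive, against 71.8% of all tested genes.

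Without control replicate 2, the fit called 6 of the 10 genes higher, namely *Cyr61*, *Ctgf*, *Wisp2*, *Ankrd1*, *Amotl2* and *Yap1* (limma, BH-adjusted p from 0.00927 to 0.0224), together with 2768 of all tested genes (18.3%). In that fit sequencing run and label coincide and cannot be told apart.

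**Figure D2:**
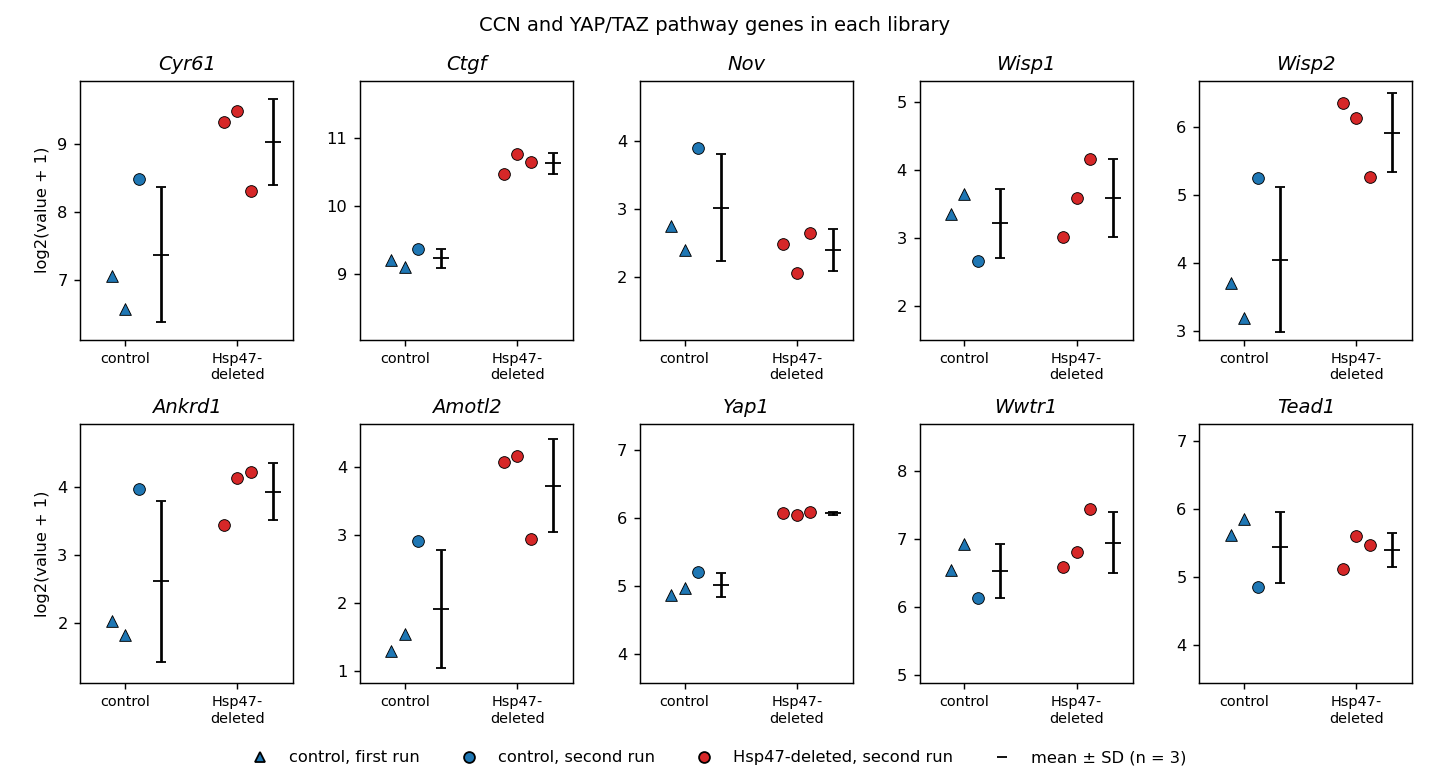
The log2(value + 1) of the 10 genes in each library, 1 panel per gene with its own vertical axis. Triangles are the controls of the first run, circles the libraries of the second run, blue control and red labelled Hsp47-deleted, and bars show the mean ± SD (n = 3). The groups are widest apart relative to their spread in *Ctgf* and *Yap1*, while in *Cyr61*, *Wisp2*, *Ankrd1* and *Amotl2* the control of the second run lies within or just under the range of the libraries labelled Hsp47-deleted.

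*Ctgf* (ENSMUSG00000019997, chromosome 10 from 24595442 to 24598683 on the plus strand, GRCm38) encodes the CCN protein that promotes fibroblast adhesion and matrix synthesis. Its log2 value was 9.20, 9.10 and 9.37 in the controls against 10.46, 10.76 and 10.64 in the libraries labelled Hsp47-deleted. The controls of both runs lay together, and the lowest library labelled Hsp47-deleted stood 1.10 above the highest control. The group means were 9.22 ± 0.13 and 10.62 ± 0.15 (SD, n = 3 each), a log2 fold change of 1.40 or 2.63-fold (SE 0.29, limma, BH-adjusted p = 0.160). The difference from control replicate 2 was 1.25, and leaving out single libraries gave from 1.33 to 1.47. With 3 libraries against 3 an exact two-sided permutation test of 1 gene cannot give less than p = 0.10, which is the value of *Ctgf*. Its exons share 665 bases with the antisense transcript *Gm15270*, whose own log2 value was 1.07 to 2.96 in controls and 3.54 to 4.14 in the others, and no source used here says that strand was used, so reads in the shared bases cannot be assigned with certainty.

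*Cyr61* (ENSMUSG00000028195, chromosome 3 from 145646976 to 145649981 on the minus strand) encodes a CCN protein of cell adhesion and angiogenesis that is also known to drive senescence of fibroblasts in healing wounds. It was at 7.06, 6.57 and 8.49 in the controls against 9.31, 9.48 and 8.31 in the libraries labelled Hsp47-deleted. The groups overlapped, because Hsp47-deleted replicate 3 lay 0.18 below control replicate 2. Mean values were 7.37 ± 0.99 and 9.03 ± 0.63 (SD, n = 3 each), a log2 fold change of 1.66 (SE 0.55, limma, BH-adjusted p = 0.283). Control replicate 2 was 1.67 above the other controls, as large a gap as that between the groups, and the difference within the second run was 0.55.

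*Wisp2* (ENSMUSG00000027656, chromosome 2 from 163820861 to 163833146 on the plus strand) encodes the CCN protein that lacks the C-terminal domain of the family and is known to counter some CTGF effects in the heart. Its log2 values were 3.70, 3.19 and 5.24 in the controls against 6.35, 6.13 and 5.25 in the libraries labelled Hsp47-deleted. The groups did not overlap, but by only 0.010. The log2 fold change was 1.87 (SE 0.56, limma, BH-adjusted p = 0.281), and 0.67 against control replicate 2, which lay 1.80 above the other controls. *Cyr61* and *Wisp2* kept nearly the same distance in every library: *Cyr61* was above *Wisp2* by 3.36, 3.39 and 3.24 in the controls against 2.96, 3.35 and 3.05 in the libraries labelled Hsp47-deleted.

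*Nov* (ENSMUSG00000037362, chromosome 15 from 54745702 to 54754039 on the plus strand), a CCN gene often described as opposed to *Ctgf*, was the one gene of the family with a negative log2 fold change. It was at 2.75, 2.40 and 3.91 in the controls against 2.48, 2.06 and 2.65 in the libraries labelled Hsp47-deleted. The range of the latter overlapped with the controls of the first run and lay wholly under control replicate 2. The log2 fold change was -0.62 (SE 0.45, limma, BH-adjusted p = 0.508), and -1.51 within the second run. With sequencing run as a covariate it did not pass either (limma, BH-adjusted p = 0.461). *Ctgf* minus *Nov* was 6.45, 6.70 and 5.46 in the controls against 7.98, 8.70 and 7.98 in the libraries labelled Hsp47-deleted, so that the groups did not overlap (difference 2.02, exact permutation p = 0.10, two-sided, the smallest that 3 against 3 allow).

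*Wisp1* (ENSMUSG00000005124, chromosome 15 from 66891320 to 66923201 on the plus strand), known as a target of Wnt signaling, did not separate the groups. It was at 3.35, 3.64 and 2.66 in the controls against 3.02, 3.59 and 4.15 in the libraries labelled Hsp47-deleted. Hsp47-deleted replicate 3 was the highest library and control replicate 2 the lowest, whereas for *Cyr61* these were the lowest and the highest of their groups. Its log2 fold change was 0.37 (SE 0.41, limma, BH-adjusted p = 0.676), and 0.93 within the second run. *Wisp3*, the remaining gene of the family, had log2 values from 0.63 to 1.38 in controls and from 0.29 to 1.60 in the others with a difference of 0.11 on that scale (BH-adjusted p = 0.920 by limma). Its exons share 482 bases with *Tube1* on the opposite strand.

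Levels were ranked between genes on 2 scales, because the sources do not say whether the linear values already account for transcript length (they sum to 690499 to 855404 per library). On the deposited scale, which is the one per length if they do, *Ctgf* came first, *Cyr61* next and *Wisp2* after it in 5 of 6 libraries, *Wisp1* was above *Nov* in 5 and *Wisp3* was last in 6. After division by the length of the longest transcript, which applies if they do not, the same leading order held in 6 of 6, *Wisp1* was above *Nov* in 3 and *Wisp3* was last in 5. The order of *Nov* and *Wisp1* therefore depends on the scale. The summed linear value of the 6 CCN genes, as deposited, was 747, 669 and 1074 in the controls against 2142, 2528 and 1966 in the libraries labelled Hsp47-deleted. *Ctgf* made up most of this sum, 78.5%, 82.1% and 61.4% in the controls and 65.9%, 68.5% and 80.9% in the others, so the sum largely follows *Ctgf*. The share of *Cyr61* in this sum was 17.8%, 14.1% and 33.3% in the controls and 29.7%, 28.1% and 16.1% in the others, so it overlapped between the groups. The share of *Nov* was 0.77%, 0.64% and 1.30% in the controls against 0.21%, 0.13% and 0.27% in the others, without overlap. The values of *Nov* itself did overlap, so its share also reflects the sum it is divided by.

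**Figure D3:**
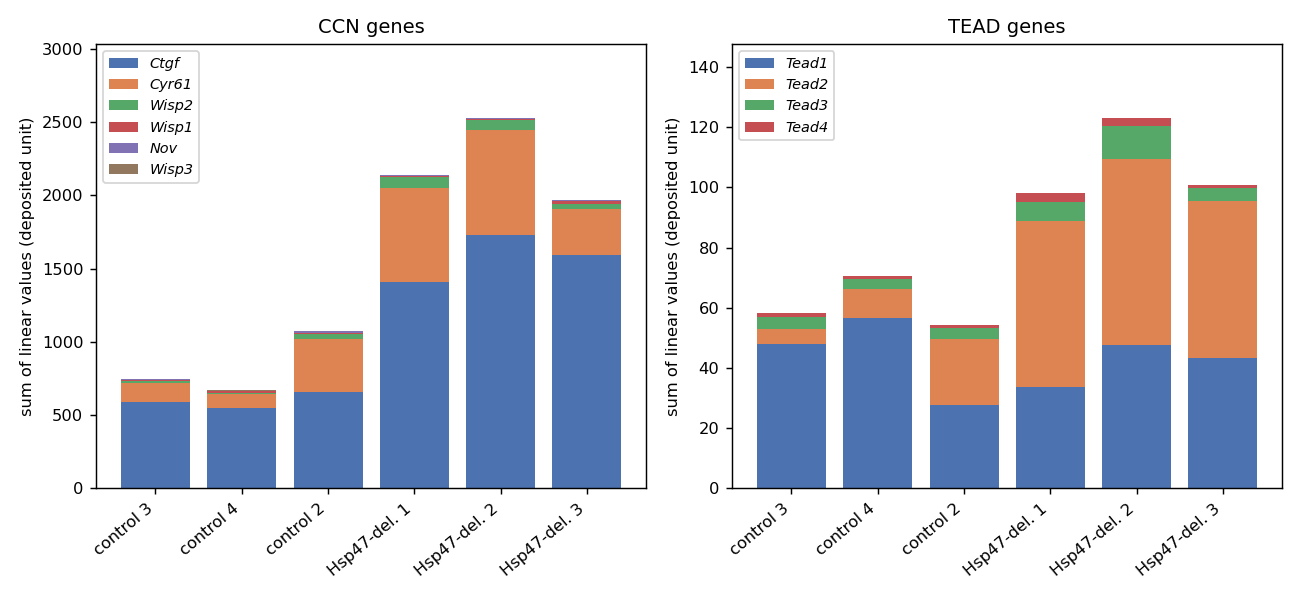
Stacked linear values, in the deposited unit, of the 6 CCN genes (left) and the 4 TEAD genes (right), 1 bar per library on axes that start at 0. Every CCN sum in the libraries labelled Hsp47-deleted (1966 to 2528) is above every control (669 to 1074), and *Ctgf* alone makes up 61.4% to 82.1% of the sums. In the right panel *Tead2* takes 50.3% to 56.2% of the TEAD sum in the libraries labelled Hsp47-deleted against 8.33% to 40.2% in the controls.

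*Amotl2* and *Ankrd1* are induced by YAP and TAZ and lie outside the CCN family. *Amotl2* (ENSMUSG00000032531, chromosome 9 from 102716672 to 102733418 on the plus strand) encodes an angiomotin-family scaffold that binds YAP and holds it in the cytoplasm. Its log2 values were 1.29, 1.54 and 2.90 in the controls against 4.06, 4.16 and 2.93 in the libraries labelled Hsp47-deleted. The groups did not overlap, by 0.023, and the controls of the first run were lowest and Hsp47-deleted replicates 1 and 2 highest, as for *Wisp2*. The log2 fold change was 1.81 (SE 0.54, limma, BH-adjusted p = 0.281), and 0.81 within the second run.

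*Ankrd1* (ENSMUSG00000024803, chromosome 19 from 36111961 to 36120099 on the minus strand) encodes a stretch-responsive ankyrin repeat protein of the sarcomere and nucleus that cardiomyocytes express at high levels. It was at 2.04, 1.83 and 3.98 in the controls against 3.44, 4.14 and 4.22 in the libraries labelled Hsp47-deleted. The only high control was the one of the second run, and it lay inside the range of the libraries labelled Hsp47-deleted. Its difference of 1.32 on the log2 scale (SE 0.59, limma, BH-adjusted p = 0.334) was -0.043 within the second run. Cardiomyocyte markers differed between the same libraries. The summed linear value of the 13 markers was 116, 62.2 and 331 in the controls against 270, 335 and 203 in the libraries labelled Hsp47-deleted. Of the 11 tested, 10 had a positive log2 fold change, against 74.5% of all tested genes. *Myh6* was at 1.96, 1.63 and 3.97 against 4.47, 4.97 and 4.15. *Nppa* was the negative one, at 2.81, 2.82 and 5.17 against 2.97, 2.45 and 2.34. Within the second run 4 of the 11 were positive, against 71.8% of all tested genes, and the median of the 11 was -0.53. The part of these markers in the values of *Ankrd1* was not tested.

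*Yap1* (ENSMUSG00000053110, chromosome 9 from 7931999 to 8004596 on the minus strand) was nearly level across the libraries labelled Hsp47-deleted. Its log2 value was 4.86, 4.96 and 5.21 in the controls against 6.06, 6.04 and 6.08 in the libraries labelled Hsp47-deleted. The groups were 0.83 apart at their nearest libraries. Means were 5.01 ± 0.18 and 6.06 ± 0.021 (SD, n = 3 each), a log2 fold change of 1.05 or 2.07-fold (SE 0.26, limma, BH-adjusted p = 0.235). Within the second run the difference was 0.86 (limma, BH-adjusted p = 0.667 with the run in the fit), and leaving out single libraries gave from 0.98 to 1.15. The exons of *Yap1* share 116 bases with *Gm20416* on the opposite strand.

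*Wwtr1* (ENSMUSG00000027803, chromosome 3 from 57455649 to 57575910 on the minus strand), the paralog that encodes TAZ, was at 6.54, 6.92 and 6.12 in the controls against 6.58, 6.80 and 7.44 in the libraries labelled Hsp47-deleted. The groups overlapped, with a log2 fold change of 0.41 (SE 0.35, limma, BH-adjusted p = 0.579), and 0.82 within the second run, where control replicate 2 was the lowest library. *Yap1* minus *Wwtr1* differed by 0.64 between the groups with overlap (exact permutation p = 0.20, two-sided) and by 0.039 within the second run, so a different behavior of the coactivators was not shown. *Tead1* (ENSMUSG00000055320, chromosome 7 from 112679318 to 112906807 on the plus strand), which encodes a DNA-binding partner of both, was at 5.62, 5.84 and 4.84 in the controls against 5.12, 5.60 and 5.47 in the libraries labelled Hsp47-deleted. Its log2 fold change was -0.036 (SE 0.35, limma, BH-adjusted p = 0.968), and 0.55 within the second run.

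*Tead2*, a further TEAD gene and not one of the 10, differed more. It was at 2.55, 3.42 and 4.51 in the controls against 5.81, 5.97 and 5.73 in the libraries labelled Hsp47-deleted. The difference was 2.34 (SE 0.48, limma, BH-adjusted p = 0.150), and 1.33 within the second run. *Tead2* minus *Tead1* was -3.07, -2.43 and -0.33 in the controls and 0.69, 0.37 and 0.25 in the others, without overlap (difference 2.38, exact permutation p = 0.10, two-sided, the smallest that 3 against 3 allow). This ratio is nearly free of the scaling of each library, and the control of the second run lay between the other controls and the libraries labelled Hsp47-deleted.

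**Figure D4:**
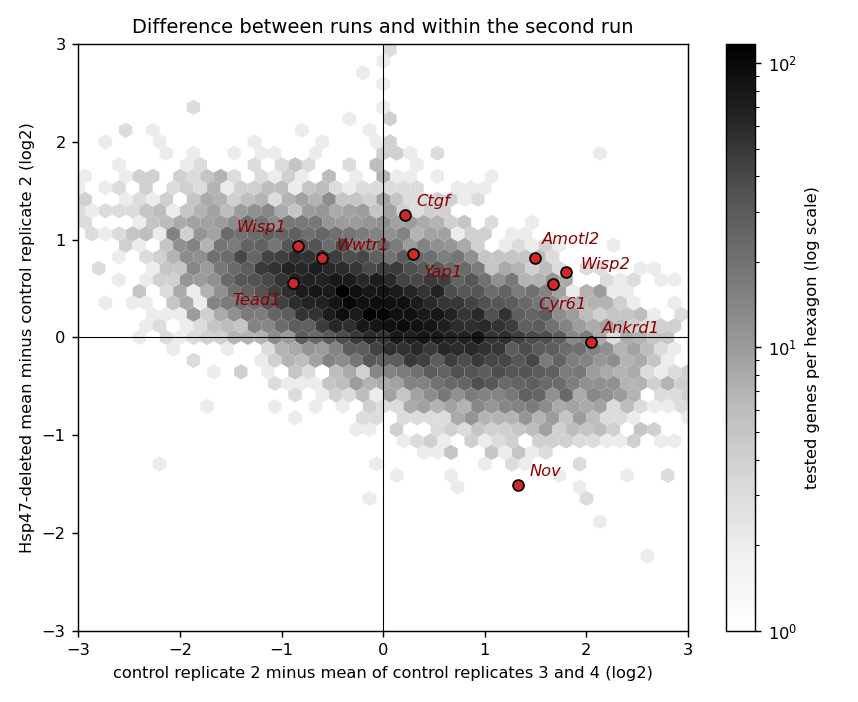
Difference between the runs (horizontal axis, control replicate 2 minus the mean of control replicates 3 and 4, log2) against the difference within the second run (vertical axis, mean of the libraries labelled Hsp47-deleted minus control replicate 2, log2) for the tested genes in gray hexagons and the 10 genes in red. Control replicate 2 enters both axes with opposite signs, which by itself tilts the cloud. *Ctgf* (0.22 and 1.25) and *Yap1* (0.30 and 0.86) lie near 0 on the horizontal axis and above 0 on the vertical, *Cyr61*, *Wisp2*, *Amotl2* and *Ankrd1* lie at 1.49 to 2.04 on the horizontal axis, and *Nov* is the one gene far below 0 on the vertical.

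Among the 10 genes, *Ctgf* and *Yap1* followed one course over the libraries, and *Cyr61*, *Wisp2* and *Amotl2* another, as described by the root mean square (RMS) difference of log2 values over the 6 libraries after each gene was centred on its mean. The first pair was 0.204 apart, with 44 of the other 15108 tested genes closer to *Ctgf*. *Cyr61* and *Wisp2* were 0.162 apart, with 13 genes closer to *Cyr61*, and *Cyr61* and *Amotl2* were 0.237 apart, with 60 closer. Between the courses, *Ctgf* and *Cyr61* were 0.635 apart, with 5799 genes closer, although both are widely used as YAP readouts. The genes most like *Ctgf* were *Rnf10* (RMS difference 0.115), *Pqlc1* (0.132) and *Sphk1* (0.132), and those most like *Cyr61* were *Crat* (0.0703), *Rasl11b* (0.0743) and *Mn1* (0.107), of 12599 genes compared after predicted genes were left out. All these points share the same 6 libraries, so closeness includes whatever the libraries as a whole have in common. *Ctgf* minus *Yap1* was 4.34, 4.15 and 4.16 in the controls against 4.40, 4.72 and 4.55 in the libraries labelled Hsp47-deleted, a small difference of 0.34 without overlap (exact permutation p = 0.10, two-sided, the smallest that 3 against 3 allow).

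**Figure D5:**
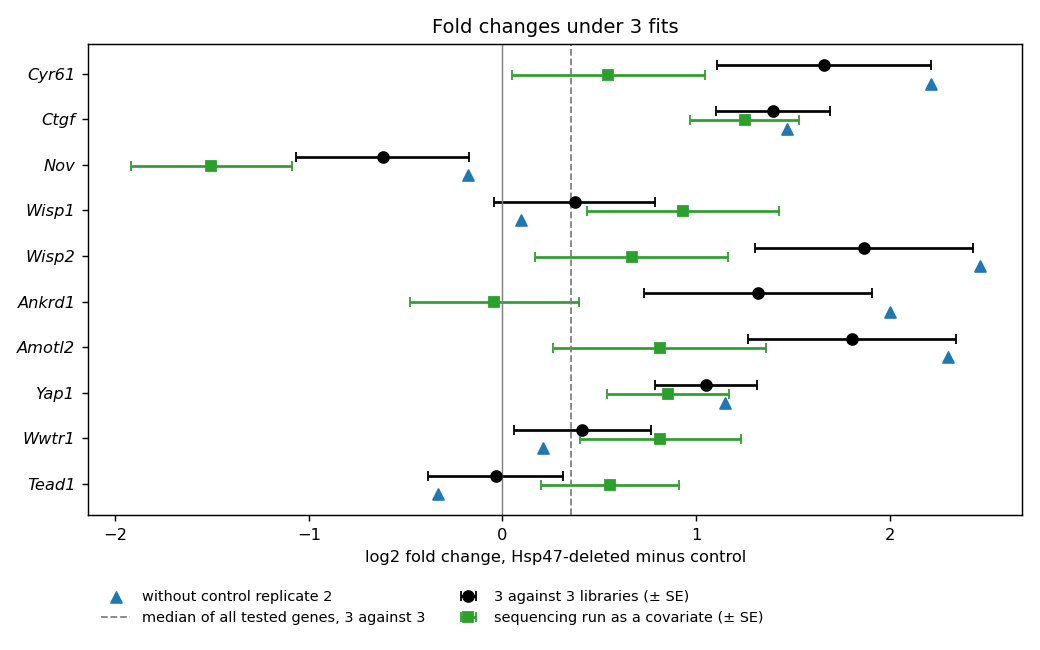
Log2 fold change of the 10 genes, libraries labelled Hsp47-deleted minus control, from 3 against 3 libraries (black, ± SE), with sequencing run as a covariate (green, ± SE) and without control replicate 2 (blue). The dashed line is the median of all tested genes (0.35). *Ctgf* (1.25 to 1.47) and *Yap1* (0.86 to 1.15) are least moved by the choice among these 3 fits, none of which rescales the libraries. *Ankrd1* goes from 2.00 without control replicate 2 to -0.043 with sequencing run as a covariate.

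Of 18 further genes known as YAP/TAZ targets, all tested, 15 had a positive log2 fold change, against 74.5% of all tested genes, and 0 passed the test after adjustment. At an unadjusted limma p under 0.05, 3 were higher and 0 lower, against 14.5% and 0.755% of all tested genes, so that both counts were near the background. The genes with the smallest p were *Nuak2*, a kinase of the AMPK family (log2 fold change 1.20, SE 0.33, limma, BH-adjusted p = 0.270), and *Ccdc80*, which encodes a matrix protein (1.18, SE 0.35, limma, BH-adjusted p = 0.281). In 4 of the 18 all libraries labelled Hsp47-deleted were above all controls, against 18.3% of all tested genes. The median of the 18 was 0.37, which is 0.015 above that of all genes, and it was -0.046 with the libraries centred on their medians. Within the second run the median was 0.50, and 16 of the 18 were positive, against 71.8% of all tested genes.

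Of 20 Hippo kinases and upstream regulators, 19 were tested and 15 had a positive log2 fold change, against 74.5% of all tested genes. At an unadjusted limma p under 0.05, 3 were higher, where 14.5% of all tested genes were, and 0 were lower or passed after adjustment. Their median was 0.26, 0.095 below that of all genes, but 0.45 within the second run, 0.16 above that of all genes there. Within that run 18 of the 19 were positive, against 71.8% of all tested genes. Of the kinases that act on YAP directly, *Lats1* had a log2 fold change of -0.23 and *Lats2* one of 0.20, and within the second run the differences were 0.54 and 0.51. *Taok3*, a kinase upstream of MST (1.64, SE 0.44, limma, BH-adjusted p = 0.261), and *Ppp2r1a*, a scaffold subunit of protein phosphatase PP2A (1.18, SE 0.32, limma, BH-adjusted p = 0.264), had the smallest p. *Lats1* and *Lats2* are named here after their values were seen.

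Among 12 other TEAD factors and cofactors, 9 were tested and 8 had a positive log2 fold change, against 74.5% of all tested genes. Higher at an unadjusted limma p under 0.05 were 2 of them, against 14.5% of all tested genes, namely *Tead2* and the cofactor gene *Vgll3* (0.92, SE 0.35, limma, BH-adjusted p = 0.306). Their median was 0.68, and 0.43 within the second run. *Vgll2* is listed at 0 in all 6 libraries.

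Of 13 genes for receptors of CCN proteins, 12 were tested and 10 had a positive log2 fold change, against 74.5% of all tested genes. At an unadjusted limma p under 0.05, 3 were higher, where 14.5% of all tested genes were, and 0 passed after adjustment. The smallest p belonged to *Sdc4*, a heparan sulfate proteoglycan of focal adhesions (0.92, limma, BH-adjusted p = 0.282), and *Lrp6*, a Wnt coreceptor (0.94, SE 0.33, limma, BH-adjusted p = 0.291). *Sdc4* was at 5.75, 5.75 and 5.68 in the controls against 6.25, 6.90 and 6.80 in the libraries labelled Hsp47-deleted, so that its controls, like those of *Ctgf*, lay together across the runs. The median of the 12 was 0.44, 0.084 above that of all genes.

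SRF and its MRTF cofactors respond to the same actin tension as YAP and TAZ, and 16 of 17 genes of this list were tested. A positive log2 fold change was found in 14, against 74.5% of all tested genes. Only 1 was higher at an unadjusted limma p under 0.05, a smaller share than the 14.5% of all tested genes, and 0 passed after adjustment. That gene was *Mkl1*, which encodes MRTF-A (1.11, SE 0.30, limma, BH-adjusted p = 0.263), followed by *Srf* (0.81, SE 0.35, limma, BH-adjusted p = 0.330). The median was 0.54, but -0.036 within the second run, where 8 of the 16 were positive, against 71.8% of all tested genes.

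Markers of other cells also differed between libraries. The summed linear value of the 10 endothelial markers was 166, 102 and 296 in the controls against 282, 241 and 185 in the libraries labelled Hsp47-deleted, and that of 9 leukocyte markers was 39.1, 81.4 and 253 against 127, 196 and 188. In the endothelial, leukocyte and cardiomyocyte lists the sum of control replicate 2 stood above both controls of the first run. It did so too for markers of fibroblasts and of Schwann, erythroid and mesothelial cells. Not every single marker followed: *Cd68* was at 4.72, 6.01 and 4.33 in the controls and *Vwf* at 3.47, 4.00 and 3.11. Control replicate 2 also stood above the mean of the other controls by at least 1 log2 unit for *Cyr61*, *Wisp2*, *Ankrd1*, *Amotl2* and *Nov*. It did so for 21.7% of all tested genes. The 7 mural cell markers took another course, with a sum of 294, 169 and 226 in the controls against 188, 170 and 126 in the libraries labelled Hsp47-deleted. The 10 fibroblast markers summed to 10029, 9386 and 12729 in the controls against 15333, 16970 and 15950 in the libraries labelled Hsp47-deleted, and *Postn* (4.41 higher on the log2 scale, limma, BH-adjusted p = 0.00337) was the only one of them to pass the test. The part of these markers in the values of the 10 genes was not tested.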

How the data were processed

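RNA of sorted EGFP+ cells was amplified (NuGEN Ovation) and sequenced from Nextera XT libraries. The authors deposited 1 table of log2(value + 1) per gene and library, together with group means and their own comparison (fold, p-values), which were not used. The submitters' processing notes name kallisto and mm10, with no version, and the paper names AltAnalyze. The linear unit, annotation and read depth are not given in the sources used here, and the values are not whole numbers, so no count model or counting interval was used.

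The 15109 of 28987 genes whose linear values averaged 1 or more were fitted together with limma 3.58.1 in R 4.3.3 (mean-variance trend, no covariate), with Benjamini-Hochberg adjustment and a threshold of 0.05. Fold changes on the log2(value + 1) scale understate those of genes with low values. Single ratios were compared by an exact permutation test. The fit was tested on simulated data. Near-identical copies (95% identity over 80% of a transcript, minimap2 2.31-r1302) were found for none of the 10 genes, *Tead2* or *Wisp3*. Positions and exons are from GENCODE release M21, promoters from RefSeq.

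The members, lists and tests were chosen with earlier results of these data known. The text names the 10 genes, *Serpinh1*, *Wisp3*, the 2 genes of each list with the smallest p, defining markers, and the 3 genes most like *Ctgf* and *Cyr61*. Named besides these are *Lats1*, *Cd68*, *Vwf* and the other YAP/TAZ targets of the promoter search. Another gene list is not reported here. The alternatives tried were sequencing run as a covariate, the second run alone, the replicate number as a block, other filters (none, a mean of 5), a pseudocount of 0.1 or 5, centring on the median, quantile normalization, limma with robust estimation or without the trend, and leaving out each library.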

Additional observations from a re-analysis of the deposited data

How the results depend on the processing

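The number of genes called, 37 as reported, was 13 with no filter on low values, 16 with a pseudocount of 0.1, 17 with quantile normalization and 18 with centring on the median, and from 8 to 2768 when single libraries were left out, the highest without control replicate 2. With the replicate number as a block, which only numbers 2 and 3 share between the groups, 0 genes and 0 of the 10 members were called by limma. As a check of pairing, the deviations of each library from its group mean were correlated over all tested genes. These deviations did not all correlate best between libraries sharing a number (r of 0.156 and 0.228 for numbers 2 and 3, against 0.382 for control replicate 2 with Hsp47-deleted replicate 1). The numbers were therefore not taken as pairs.

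Of the 10 genes, those called in any fit were called only without control replicate 2. Leaving out single libraries gave log2 fold changes from 1.26 to 2.22 for *Cyr61*, from 1.33 to 1.47 for *Ctgf*, from -0.93 to -0.18 for *Nov* (the latter without control replicate 2), from 0.090 to 0.66 for *Wisp1*, from 0.16 to 0.61 for *Wwtr1*, from 1.44 to 2.47 for *Wisp2*, from 0.93 to 2.00 for *Ankrd1*, from 1.49 to 2.30 for *Amotl2*, from 0.98 to 1.15 for *Yap1* and from -0.33 to 0.17 for *Tead1*. Within the second run alone the values were 0.55 for *Cyr61*, 1.25 for *Ctgf*, -1.51 for *Nov*, 0.93 for *Wisp1*, 0.67 for *Wisp2*, 0.81 for *Amotl2* and 0.86 for *Yap1*, with no test. With centring on the median *Ctgf* was at 0.98 and *Yap1* at 0.64, the median of all tested genes being -0.060. With quantile normalization *Ctgf* was at 0.87 and *Yap1* at 0.70, and that median was -0.048. Signs turned for *Ankrd1* (-0.043) and *Tead1* (0.55) in the second run alone and with sequencing run as a covariate, for *Tead1* with the block (0.31), and without control replicate 3 (0.055), control replicate 4 (0.17) or Hsp47-deleted replicate 1 (0.10). *Wisp1* was at -0.043 with quantile normalization and with centring, and *Wwtr1* at -0.0030 with centring. The cause was not tested, beyond the loss of a library or of 2 controls that some of these settings consist of.

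When single libraries were left out, genes of the further lists were called only without control replicate 2. Among tested genes these were 4 of 18 YAP/TAZ targets, 3 of 19 Hippo regulators and 1 of 9 TEAD factors or cofactors. Called as well were 1 of 12 receptors and 7 of 16 SRF and MRTF genes. In that fit 18.3% of all tested genes were called, and sequencing run and label coincide. The second run holds 1 control, so the difference within it rests on that library. Read depth is unknown, and with 3 libraries a group the wide spread of *Cyr61*, *Wisp2*, *Ankrd1* and *Amotl2* among controls limits what the test can show.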
